A study of Homo sapiens with 4 samples.

Results

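The 5 genes described here encode hnRNP proteins: HNRNPU, HNRNPA2B1, HNRNPC, HNRNPK and HNRNPA1. HNRNPU encodes SAF-A itself, the protein whose RNA contacts were profiled. The peaks of a gene were those on its strand whose midpoint lay within its span on GRCh37, and 148 of the 278959 listed peaks met this rule. The cells were HCT116, a human line derived from a colorectal carcinoma, with no genetic change or drug treatment named in the labels. Both groups came from cells crosslinked by ultraviolet light, whose lysate was split into an input and an immunoprecipitation with a monoclonal SAF-A antibody. RNA of both was taken from the gel region at and just above the size of SAF-A. The 2 input lists held 29386 and 42256 peaks and the 2 pull-down lists 96061 and 111256 (replicates 1 and 2 in this order, here and in all pairs of values below). The peak lists hold no reads, so depth is unknown, and they give no RNA levels against which the cell line could be checked.

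hnRNP proteins coat nascent transcripts in the nucleus and take part in splicing, packaging and export of RNA. SAF-A joins an RNA-binding RGG domain to a DNA-binding SAP domain and is known as a component of the nuclear scaffold. hnRNP A1 and hnRNP A2/B1 are related splicing regulators with RNA recognition motifs, hnRNP C binds runs of uridine and restrains the use of cryptic exons, and hnRNP K binds cytidine-rich RNA through KH domains. Several hnRNP proteins are known to bind transcripts of their own genes, so the transcripts of these genes are of interest as targets. A list peak marks where fragments piled up. It does not by itself tell direct contact from abundant background RNA, for which the size-matched input is the reference.

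HNRNPU (gene 3192) spans bases 245013602 to 245027844 of chromosome 1 and HNRNPA2B1 (gene 3181) bases 26229556 to 26240413 of chromosome 7. HNRNPC (gene 3183) spans bases 21677296 to 21737638 of chromosome 14 and HNRNPK (gene 3190) bases 86582998 to 86595569 of chromosome 9. These 4 are transcribed from the minus strand. HNRNPA1 (gene 3178) spans bases 54674488 to 54679030 of chromosome 12 on the plus strand. HNRNPC has much the longest span, at 60343 bases, against 14243 for HNRNPU, 12572 for HNRNPK, 10858 for HNRNPA2B1 and 4543 for HNRNPA1. The RefSeq gene table for GRCh38.p14 gives a longer HNRNPA1, of 6362 bases, so the span used for it covers less than the RefSeq gene. For the other 4 genes the lengths of both sources are close, with 14247 bases for HNRNPU and 60296 for HNRNPC in RefSeq. Exons, introns and untranslated regions of GRCh37 were not used here, so positions are given as distances from the 5′ end of the gene span.

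The positions matched these genes strand by strand. Over the 4 lists, 148 peaks lay on the gene strand and 8 on the opposite strand of the 5 spans. At the GRCh38 positions of the same genes there were 1 and 2. Together with 1214 of 278492 nuclear peaks that run beyond the chromosome lengths of GRCh38, this is the basis for reading the lists as GRCh37.

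HNRNPU, HNRNPA2B1 and HNRNPK took a smaller share of the pull-down lists than of the input lists, while HNRNPC took a slightly larger share of the whole pull-down lists. For HNRNPU, the gene of the precipitated protein, the share was 4.57 times higher in the inputs. Each library's value is given as peaks per 10000 listed peaks, which corrects for the length of the list. In none of the 5 genes did the pull-down values overlap with the input values, which was common: the groups did not overlap in 88.2% of 221 features compared across the genome (49.8% higher and 38.5% lower in the pull-downs). For HNRNPA1 this came from list length alone, since 1 peak is a smaller share of a longer list. It had 1 peak in each input against 0 and 1 in the pull-downs. With 2 against 2 libraries the two-sided exact permutation p was 0.33 for each of the 5 genes, the smallest this test can give. The labels do not tie the replicates to separate cultures, and the p-values therefore measure only the spread between these libraries, which may be technical. Over the 5 genes together the share was 7.83 and 9.23 per 10000 in the inputs, against 3.44 and 4.76 in the pull-downs. Without HNRNPC it was 6.47 and 7.10 against 0.937 and 1.62.

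**Figure D1:**
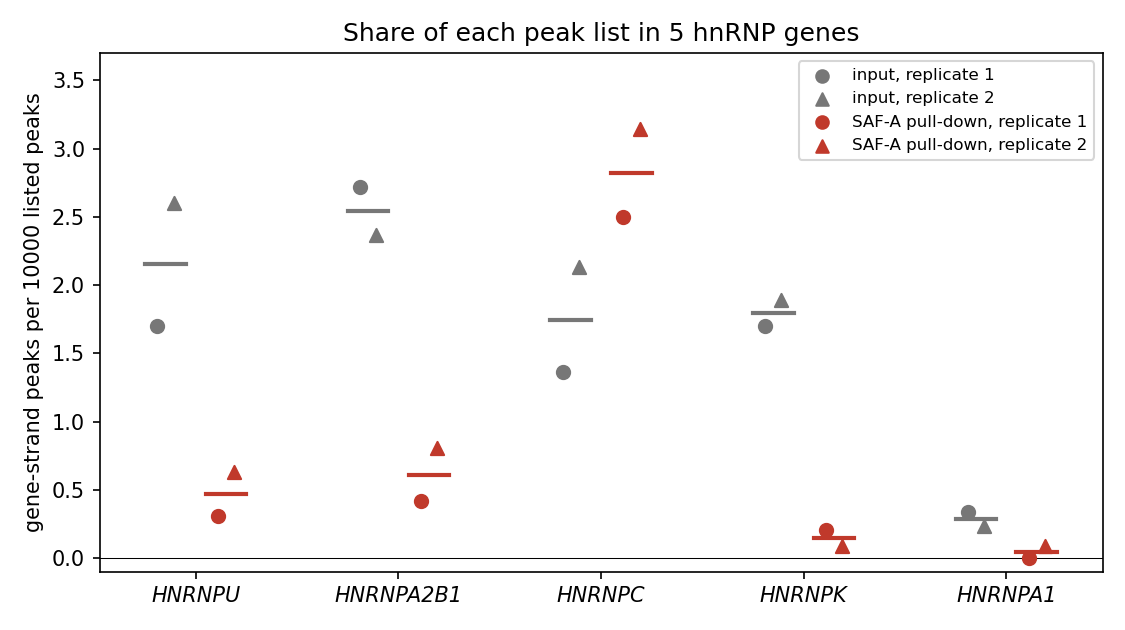
Gene-strand peaks per 10000 listed peaks (vertical axis) in 5 hnRNP genes (horizontal axis); grey marks the inputs, red the SAF-A pull-downs, circles replicate 1, triangles replicate 2, and horizontal bars the group means. For HNRNPU the inputs sit at 1.70 and 2.60 and the pull-downs at 0.312 and 0.629, whereas for HNRNPC the pull-downs, at 2.50 and 3.15, are above the inputs.

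HNRNPU had 5 and 11 peaks in the inputs against 3 and 7 in the pull-downs, although the pull-down lists were longer. These are input shares of 1.70 and 2.60 per 10000 listed peaks against pull-down shares of 0.312 and 0.629. The mean shares were 2.15 ± 0.64 and 0.471 ± 0.224 (SD, n = 2 each), and the groups did not overlap. In limma, across 221 features (10 kb windows on 1 strand, with the genes as features of their own, and a mean of at least 5 peaks), the log2 ratio of pull-down to input was -2.19 (SE 0.39, adjusted p = 1.7e-07). Such a call was common: 72.9% of the features were called, 35.7% lower and 37.1% higher in the pull-downs. The minimum is a mean of raw peak numbers, and the split moved with the libraries used: without pull-down replicate 1 there were 11 higher and 107 lower calls, and without replicate 2 there were 16 and 97. HNRNPU was lower in both cases (log2 ratio -1.74 and -2.63), and calls in its direction were common throughout. With the minimum set on the share of the list instead, a choice made after the data were seen, 68.4% of 275 features were called lower. The median log2 ratio of these 275 features was -2.19, the same as that of HNRNPU. That minimum favours features high in the shorter input lists, where 1 peak is a larger share. In the main fit the median was 0.47, and 174 of 221 features had a higher ratio than HNRNPU. With no minimum the median was -0.76, and 111094 of 121175 features had a higher ratio. How typical the HNRNPU ratio was thus depends on the minimum.

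HNRNPA2B1 had 8 and 10 peaks in the inputs against 4 and 9 in the pull-downs. Its shares were 2.72 and 2.37 in the former against 0.416 and 0.809 in the latter, with means of 2.54 ± 0.25 and 0.613 ± 0.278 (SD, n = 2 each). The log2 ratio was -2.08 (SE 0.33, limma adjusted p = 5.4e-09), close to that of HNRNPU. It was also near the median of -2.19 over the 275 features that passed a minimum set on the share of the list. In the main fit the median was 0.47, and 172 of 221 features had a higher ratio than HNRNPA2B1. The difference between both genes in this ratio was -0.10, and the exact permutation p for it was 1.

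HNRNPK had 5 and 8 peaks in the inputs against 2 and 1 in the pull-downs. Its shares were 1.70 and 1.89 in the inputs against 0.208 and 0.090 in the pull-downs, so that the inputs exceeded the pull-downs 12.1-fold by their means. Its mean of 4 peaks was below the minimum, so it was not tested in the main fit. The log2 ratio, with 0.5 added to each peak number, was -3.37, and only 3 peaks stand behind the pull-down side. When the minimum was set on the share of the list instead, a choice made after the data were seen, HNRNPK was tested and called lower. It passed that minimum only through its input shares, so this call is no support for a difference. In that fit 68.4% of 275 features were lower, so this call too was common.

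HNRNPA1 had 1 peak in each input, 0 in pull-down replicate 1 and 1 in replicate 2. Its 3 peaks lay at 3 different places, so none was found again in another library. No ratio is given for so few peaks. Its gene also has many processed pseudogenes, near-identical copies between which reads can be split, so its peaks are uncertain.

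HNRNPC differed from the other 4 genes in direction over the whole lists. It had 4 and 9 peaks in the inputs against 24 and 35 in the pull-downs, or 1.36 and 2.13 per 10000 listed peaks against 2.50 and 3.15. The mean shares were 1.75 ± 0.54 and 2.82 ± 0.46 (SD, n = 2 each), and the groups did not overlap. HNRNPC was fitted as 1 feature of 60343 bases beside windows of 10 kb, so it passed the minimum of 5 peaks more readily than a window. The log2 ratio was 0.62 (SE 0.25, limma adjusted p = 0.022), against a median of 0.47 over all tested features, of which 37.1% were called higher. That median depends on which features pass the minimum: it was -2.19 with the minimum set on the share of the list, -1.09 without pull-down replicate 1 and -1.67 without replicate 2. The call did not survive leaving out input replicate 1 (adjusted p = 0.219), pull-down replicate 1 (0.093) or pull-down replicate 2 (0.296) in limma. Among peaks under 50 bases the log2 ratio was 2.31 (limma adjusted p = 0.0168) and among wider ones -0.36 (adjusted p = 0.448). The medians over the features tested there were 1.43 (111 features) and -1.48 (4 features). The direction also turned with the strength of the peaks counted: when every list was cut to its 29386 best-scoring peaks, HNRNPC kept 4 and 7 peaks in the inputs against 2 and 0 in the pull-downs. That gave a log2 ratio of -2.38, untested because the mean fell below 5 peaks. The shift was general: at that length the median over 34 tested features was -1.91, with 33 called lower and 0 higher. No peak of HNRNPU, HNRNPA2B1, HNRNPK or HNRNPA1 remained in either pull-down at that length. The lowest score kept was 10 and 13 for inputs against 30 and 33 for pull-downs.

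**Figure D2:**
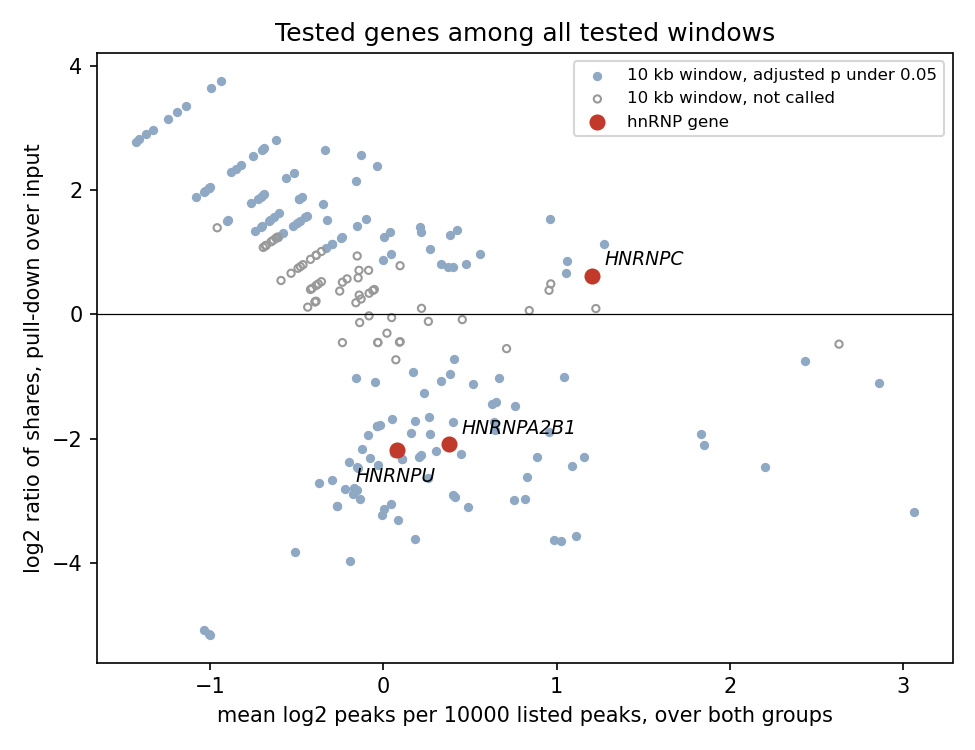
Each point is a feature with a mean of at least 5 peaks: 10 kb windows on 1 strand (blue where the limma adjusted p was under 0.05, open grey otherwise) and the 3 tested hnRNP genes (red). The horizontal axis is the mean log2 share of the lists over both groups and the vertical axis the log2 ratio of pull-down to input; HNRNPU (-2.19) and HNRNPA2B1 (-2.08) lie among windows called lower, and HNRNPC (0.62) just above 0.

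All 10 pairs of genes were compared by the per-library log2 ratio of their peak numbers. The 6 pairs whose pull-down and input values did not overlap included all those of HNRNPC. The log2 ratio of HNRNPU to HNRNPC differed between pull-downs and inputs by -2.81, and that of HNRNPC to HNRNPK by 3.99. No pair passed the threshold after Benjamini-Hochberg adjustment over the 10 pairs. For each of the 6 pairs without overlap the exact permutation p was 0.33, the smallest that 2 against 2 libraries allow, and the adjusted p was 0.56.

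Peaks per kb of span put the genes on a common scale within a library. In the inputs the order was HNRNPA2B1 (0.829 ± 0.130 peaks per kb), HNRNPU (0.562 ± 0.298), HNRNPK (0.517 ± 0.169), HNRNPA1 (0.220 in both libraries) and HNRNPC (0.108 ± 0.059; SD, n = 2 each). HNRNPA2B1, HNRNPU and HNRNPK overlapped with their neighbours in this order, and HNRNPA1 and HNRNPC stood apart below them and from each other. In the pull-downs the order was HNRNPA2B1 (0.599 ± 0.326), HNRNPC (0.489 ± 0.129), HNRNPU (0.351 ± 0.199), HNRNPK (0.119 ± 0.056) and HNRNPA1 (0.110 ± 0.156). There only HNRNPU and HNRNPK were neighbours whose libraries did not overlap. HNRNPC, the least dense gene of the inputs, overlapped with HNRNPA2B1 and HNRNPU in the pull-downs. These densities are not corrected for list length and are not compared between groups.

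Along HNRNPU, the pull-down peaks reached a stretch near the 3′ end that held no input peak. When the span was divided into 5 equal segments, the 3′-most one held 0 of 5 and 0 of 11 input peaks, against 2 of 3 (66.7%) and 3 of 7 (42.9%) pull-down peaks. Both sites that the pull-downs shared without an input peak lay there. Lacking an input peak was common: of all pull-down peaks, only 29.9% and 26.6% had one. In lists of equal length 0 such sites remained in HNRNPU. The better-ranked site had 25 bases from 245015607 to 245015631, 12.2 kb from the 5′ end, and scored 11 and 16. The other had 42 bases from 245014287 to 245014328, 13.5 kb from the 5′ end, and scored 14 and 11. Scores are the authors' own per peak, in no stated unit, and start at 10 in the lists. The median of a pull-down list was 19, so both sites were weak peaks of their lists.

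Another gene-strand site of this segment, of 42 bases from 245015040 to 245015081 (12.8 kb from the 5′ end), was in pull-down replicate 2 alone, with a score of 17. The sites shared with or between the inputs lay farther 5′. A site 10.8 kb from the 5′ end, from 245016997 to 245017183, was in both inputs (scores 19 and 18) and in pull-down replicate 1 at the lowest score listed, 10. A site at 7.98 kb was in both inputs (11 and 12) and in pull-down replicate 2 (10). At 6.49 kb a site was in both inputs (12 and 13) and in no pull-down. Over the span there were 16 gene-strand sites, of which 4 were seen in both groups, 0 in all 4 libraries and 9 in a single library. The gene-strand peaks of HNRNPU were thus few, with scores of at most 21. The other replicate had 3 of 5 and 3 of 11 of its input peaks and 2 of 3 and 2 of 7 of its pull-down peaks.

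**Figure D3:**
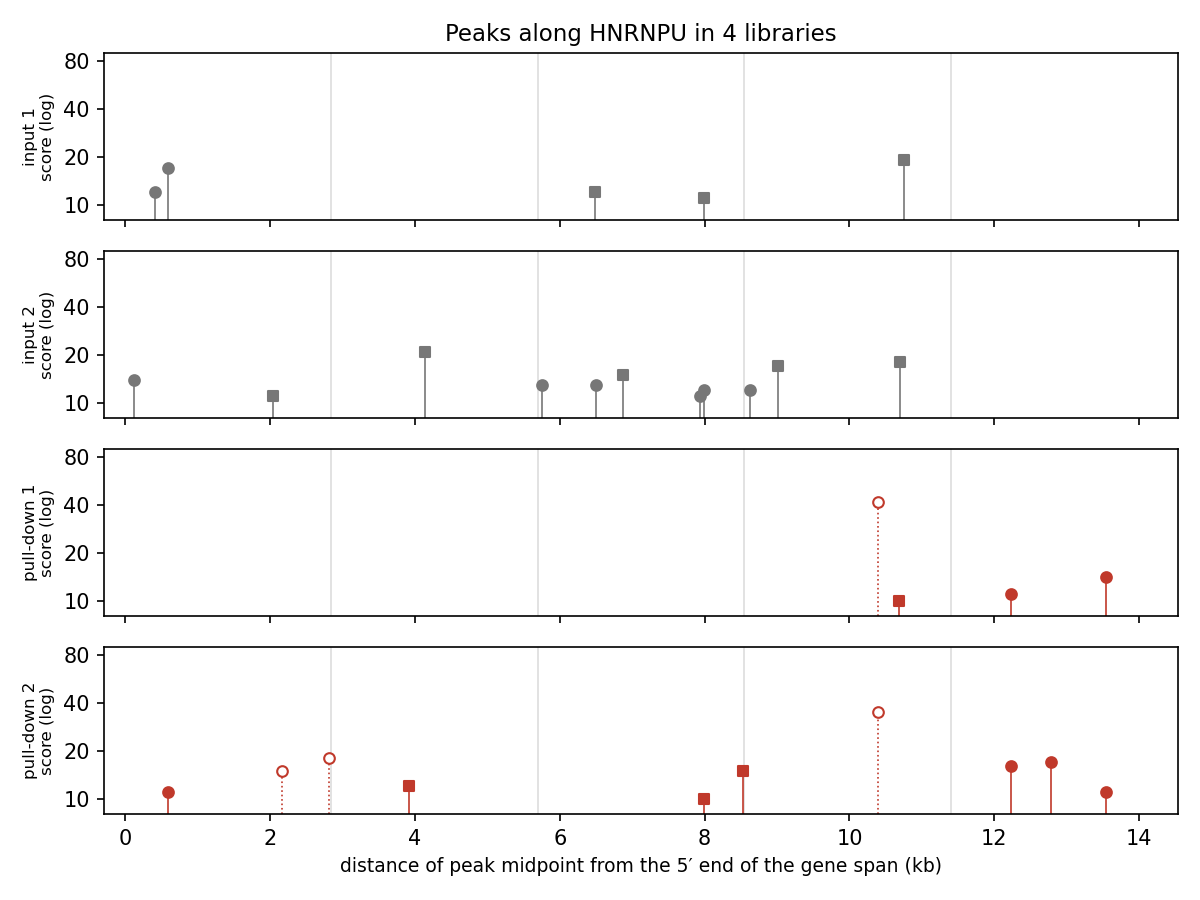
Peaks along HNRNPU in the 4 libraries: the horizontal axis is the distance of the peak midpoint from the 5′ end of the span (kb, grey lines divide the span into 5 equal segments) and the vertical axis the authors' score (log scale). Filled symbols are gene-strand peaks, open symbols with dotted lines opposite-strand peaks, squares are at least 50 bases wide and circles narrower; gene-strand peaks beyond 12 kb occur in the pull-downs alone, and the opposite-strand peak at 10.4 kb is the highest of each pull-down panel.

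The strongest HNRNPU peak of each pull-down was not on the gene strand. A narrow peak on the plus strand, 11 and 13 bases wide, lay from 245017445 or 245017443 to 245017455, 10.4 kb from the 5′ end. It scored 42 and 35, against at most 14 and 17 for gene-strand peaks of the same libraries, and no input had it. In these lists 20.0% and 24.7% of all peaks scored as high or higher. The site was singled out after its values had been seen. The RefSeq table places SNORA100, a small nucleolar RNA gene, within HNRNPU, and whether this peak lies on it was not tested, because the table is of another build. HNRNPA2B1 also had an opposite-strand peak in both pull-downs and in no input, at 6.02 and 6.03 kb, with scores of 10 and 11.

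Along HNRNPC, most pull-down peaks lay in the first 3 of 5 equal segments of the long span, and so did most of the few input peaks. From the 5′ to the 3′ end, 5 equal segments of the span held 10, 6, 4, 1 and 3 peaks in pull-down replicate 1 and 13, 11, 8, 1 and 2 in replicate 2. The inputs had 2, 1, 0, 0 and 1 peaks in replicate 1 and 2, 1, 2, 0 and 4 in replicate 2. The first 3 segments thus held 20 of 24 and 32 of 35 pull-down peaks, against 3 of 4 and 5 of 9 input peaks. By the median position the groups were not far apart: it was 16.3 and 35.3 kb from the 5′ end for input peaks against 18.9 and 16.03 kb for pull-down peaks, and they overlapped. The strongest input peak of HNRNPC in both inputs was instead near the 3′ end, at 58.1 kb, with scores of 22 and 46. Pull-down replicate 2 had a peak of score 14 there and replicate 1 had none.

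HNRNPC held 9 of the 13 sites of these genes that both pull-downs shared without an input peak, and 54 of their 98 sites of any kind. These 9 were 20 to 96 bases wide and lay 1.05 to 31.0 kb from the 5′ end. Their scores were 10 to 23 in the pull-downs. The best ranked of the 9 ran from 21729180 to 21729275, 8.41 kb from the 5′ end, with scores of 16 and 22. The site with the best mean rank in the pull-downs was also in both inputs: it ran from 21727403 to 21727520, 10.2 kb from the 5′ end, and scored 20 and 21 in the pull-downs against 11 and 21 in the inputs. No HNRNPC site was in both inputs and in neither pull-down. Of its 54 sites, 34 were in a single pull-down alone. These included its highest-scoring peaks, of 68 (56 bases, 27.2 kb from the 5′ end) and 64 (13 bases, 6.40 kb), both in replicate 1 and in no other library.

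**Figure D4:**
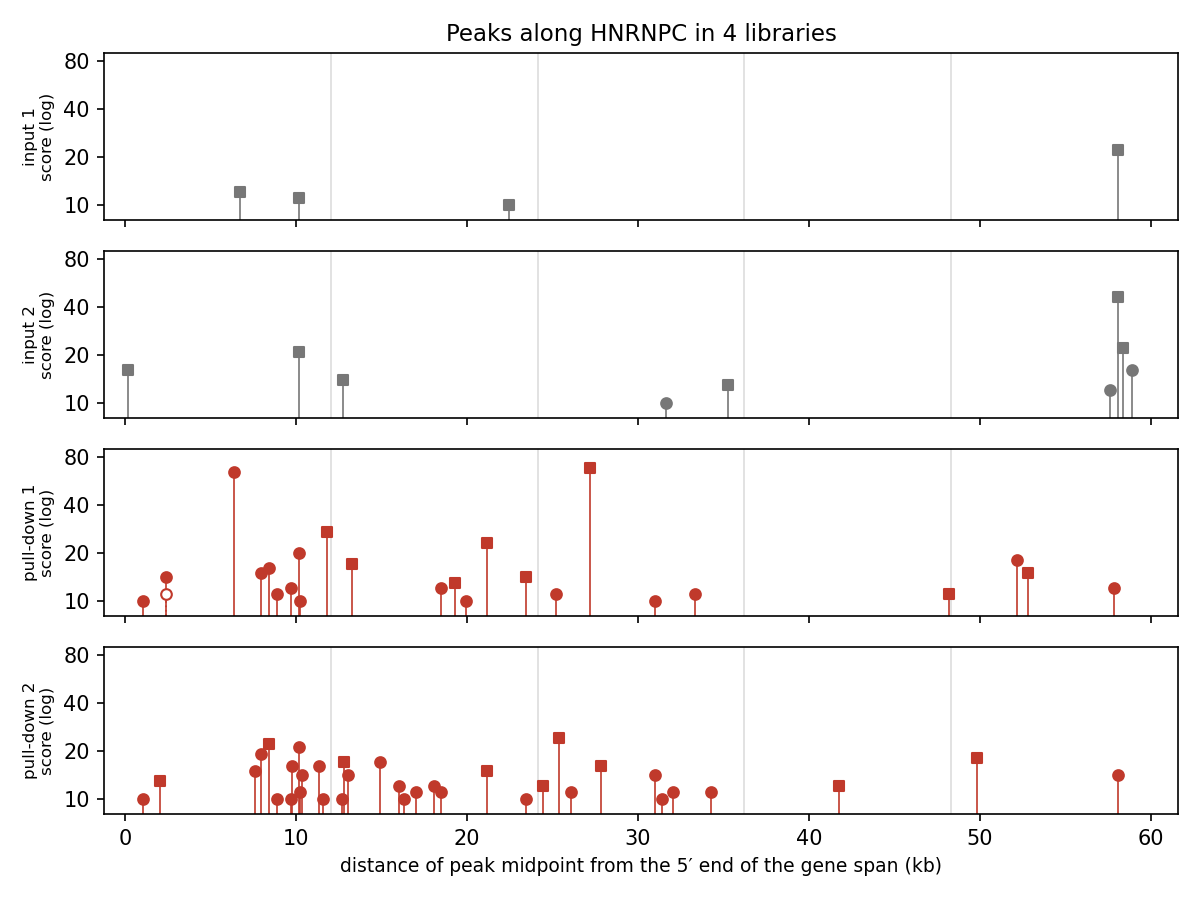
Peaks along HNRNPC in the 4 libraries, by distance of the midpoint from the 5′ end of the span (kb, horizontal; grey lines divide the span into 5 equal segments) and authors' score (vertical, log scale); filled symbols are gene-strand peaks, the open symbol an opposite-strand peak, squares at least 50 bases wide, circles narrower. The first 3 segments hold 20 of 24 and 32 of 35 pull-down peaks and 3 of 4 and 5 of 9 input peaks.

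In HNRNPA2B1 some sites were seen in both groups. Of its input peaks, 5 of 8 and 5 of 10 had a pull-down peak, against 71.0% and 67.7% of all input peaks. For its pull-down peaks, 3 of 4 and 5 of 9 had an input peak, against 29.9% and 26.6% of all pull-down peaks. Of the 15 HNRNPA2B1 sites, 6 were in an input and a pull-down and 1 was in all 4 libraries. Its strongest input site was at the 5′ end of the span, from 26240192 to 26240368. It scored 62 and 55 in the inputs, 17 in pull-down replicate 2, and was absent from the list of replicate 1. The strongest site shared by the pull-downs, from 26231761 to 26231958 (8.55 kb from the 5′ end), scored 24 and 31 in them and 29 in input replicate 2. A site from 26238462 to 26238530, 1.92 kb from the 5′ end, was the only HNRNPA2B1 site in both pull-downs that no input had (scores 11 and 14). The 5 segments of its span held 1, 0, 0, 3 and 0 peaks in pull-down replicate 1 and 2, 0, 2, 4 and 1 in replicate 2. The inputs had 1, 1, 2, 3 and 1 and 2, 4, 1, 3 and 0.

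In HNRNPK no site was shared between the groups. Both inputs had 5 sites, 37 to 125 bases wide and 0.08 to 8.95 kb from the 5′ end, that neither pull-down had. Input scores at these sites were 10 to 25. The pull-downs shared a single site of 8 bases, from 86588207 to 86588214 (7.36 kb from the 5′ end), with scores of 11 and 13. The other pull-down peak, of 13 bases and score 19, was in replicate 1 alone. The RefSeq table places the microRNA gene MIR7-1 and the antisense gene HNRNPK-AS1 within HNRNPK. Whether a peak lies on MIR7-1 was not tested. No opposite-strand peak was listed in the span, so none lay on the strand of the antisense gene.

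**Figure D5:**
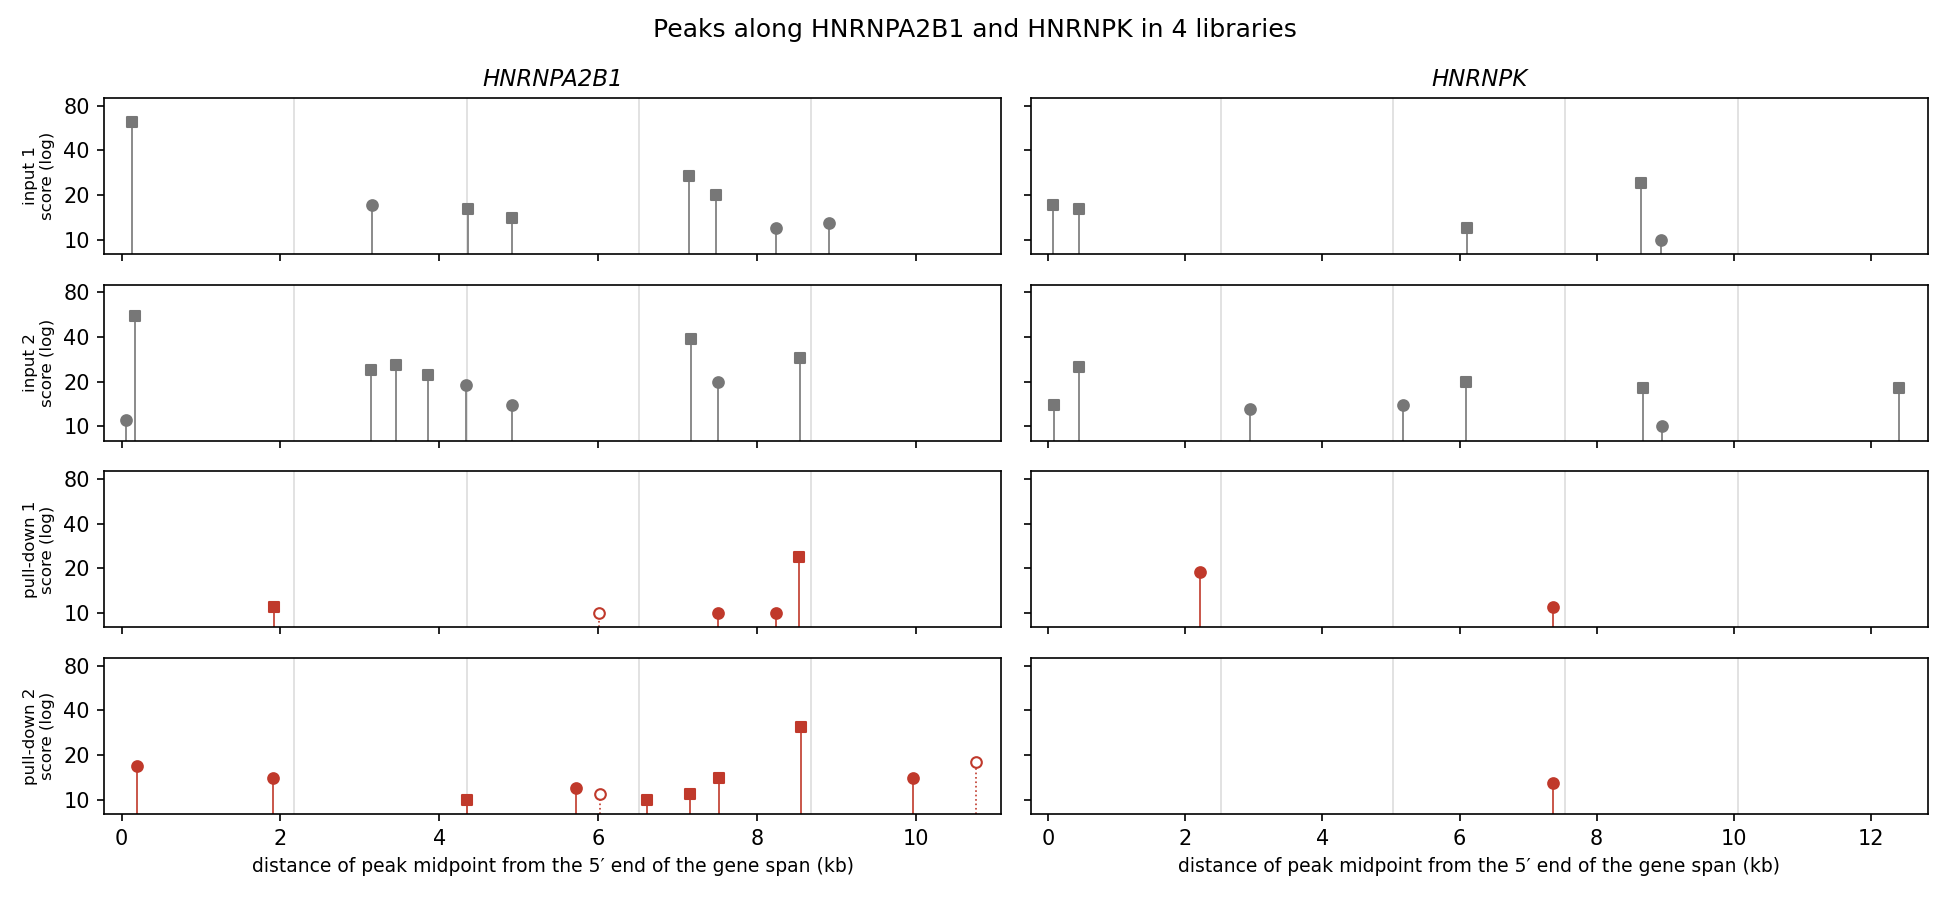
Peaks along HNRNPA2B1 (left) and HNRNPK (right) in the 4 libraries, by distance from the 5′ end of the span (kb, horizontal) and authors' score (vertical, log scale); symbols are filled for the gene strand and open for the opposite strand, square from 50 bases of width and round below. The 5′ site of HNRNPA2B1 scores 62 and 55 in the inputs, and HNRNPK has 2 and 1 pull-down peaks, all narrow.

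Over all 5 genes, peaks were wider than their lists at large. Peaks of at least 50 bases made up 73.9% (95% Wilson interval 53.5 to 87.5) and 59.0% (43.4 to 72.9) of the input peaks of these genes and 33.3% (19.8 to 50.4) and 32.1% (21.1 to 45.5) of the pull-down peaks. In the whole lists the shares were 22.1% and 26.6% in the inputs against 16.2% and 19.2% in the pull-downs. The intervals cover counting error only, and neighbouring peaks of a gene are not independent. The groups did not overlap (exact permutation p = 0.33). The narrow end was reached in HNRNPK, whose pull-down peaks had median widths of 9.5 and 8 bases against 70 and 60.5 in the inputs, and the wide end in HNRNPA1, whose input peaks had 148 and 121 bases.

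Taken over the 5 genes, median scores were below those of the lists; an exception among the genes was HNRNPA2B1, with a median of 23 in input replicate 2. The pooled median score was 14 and 16 in the inputs, where the lists had 17 in each, and 12 in each pull-down, where the lists had 19. The best pull-down rank of an HNRNPU gene-strand peak was 63405 of 96061 and 59562 of 111256. The best in the inputs was 12547 of 29386 and 15081 of 42256. HNRNPA2B1 held the best input ranks of the 5 genes, 2485 and 3981.

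The share of peaks found again in the other replicate was lower for the 5 genes pooled than for the whole list in each of the 4 libraries, within counting error in 3 of them. Without HNRNPC it was 66.7% in pull-down replicate 1, against 65.6% of the list. Of the peaks of the 5 genes, 69.6% (95% Wilson interval 49.1 to 84.4) and 43.6% (29.3 to 59.0) of the inputs were found in the other input, against 77.7% and 54.1% of all peaks. In the pull-downs 51.5% (35.2 to 67.5) and 32.1% (21.1 to 45.5) were found again, against 65.6% and 56.7%. The interval excludes the list's share in pull-down replicate 2 and in no other library. All intervals here treat peaks as independent, which neighbouring peaks of a gene are not, so they are no test of a difference. In the other group, 43.5% and 30.8% of the input peaks of these genes had a pull-down peak, against 71.0% and 67.7% of all input peaks, above the upper Wilson bounds of 63.2% and 46.4%. For pull-down peaks these were 18.2% and 24.5%, against 29.9% and 26.6%. HNRNPC held most of these pull-down peaks. Without it the share was 44.4% in each pull-down (4 of 9 and 8 of 18 peaks, 95% Wilson intervals 18.9 to 73.3 and 24.6 to 66.3). That is above the shares of the lists, but both intervals include them.

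Flanks of the length of the gene on either side gave the local level on the same strand. The HNRNPC flanks held no input peak upstream and 1 and 2 downstream, against 2 and 4 pull-down peaks upstream and 5 and 4 downstream. The 24 and 35 pull-down peaks within HNRNPC thus exceeded both its flanks. HNRNPU had 0 peaks in its upstream flank in each library, and downstream no input peak and 1 peak in each pull-down. HNRNPA1 had 1 peak in its downstream flank in each pull-down and none in the inputs, and its longer RefSeq span bears on that flank.

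Among the 220 other features tested, HNRNPU was compared by the distance between the log2 shares of the 4 libraries. The nearest windows lay on chromosome 13 (minus strand, 45910001 to 45920000), with 6 and 8 peaks in the inputs against 3 and 5 (distance 0.67), and on the same strand of chromosome 8, from 101730001 to 101740000 (6 and 10 against 5 and 7, distance 0.71) and from 101720001 to 101730000 (5 and 7 against 4 and 6, distance 0.74). HNRNPA2B1 was the 5th nearest feature (distance 0.81) and HNRNPC the 136th (distance 3.62). With 4 libraries in 2 groups, such a match mostly repeats the group difference and the list total.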

How the data were processed

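The authors deposited 1 peak list per sample with chromosome, start, end, score and strand, so replicates were not pooled. The deposited score is a whole number of at least 10 with no stated meaning, and was used only within a list. The other deposited columns are positions in bases. STAR, featureCounts and GRCh38 are named without versions in the submitters' processing notes; the peak caller is not given in the sources used here. Positions are 1-based and taken as GRCh37 (GRCh38 chromosome lengths came from general knowledge). The 5 genes, their spans and the tests were chosen with earlier results of these data known.

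Peaks were assigned by midpoint and strand. After adding 0.5 to each peak number, the share per 10000 listed peaks was put on the log2 scale and fitted with limma 3.58.1 (R 4.3.3; lmFit, eBayes with a mean trend, Benjamini-Hochberg at 0.05) on all 4 libraries, without the replicate number, over 10 kb windows on 1 strand and the genes, with a mean of at least 5 peaks. HNRNPK (4) and HNRNPA1 (0.75) missed that minimum. Single values were compared by exact permutation (SciPy 1.17.1). Overlap meant at least 1 shared base on the same strand, and a site joined overlapping peaks of the 4 lists. Named were the 5 genes, the sites of HNRNPU in both pull-downs by mean rank (up to 5; there were 2), the best such site of each other gene, and the 3 windows nearest to HNRNPU; other sites were chosen after their values were seen. Gene names and identifiers of all 5 genes matched RefSeq (GRCh38.p14). Positions of other hnRNP genes on GRCh37 were not used here.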

Additional observations from a re-analysis of the deposited data

Results flagged for a closer look

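Peaks on the strand opposite to the 5 genes appeared in the pull-downs and not in the inputs. There were 3 and 5 of them in the pull-downs, 8 together, against 0 in each input. They were in HNRNPU (1 and 3), HNRNPA2B1 (1 and 2) and HNRNPC (1 and 0), and they were 7 to 41 bases wide. The pull-down lists were also the longer ones, with 96061 and 111256 peaks against 29386 and 42256, and the part of this in the difference was not tested. The sites at 10.4 kb in HNRNPU and at 6.03 kb in HNRNPA2B1 were in both pull-downs, and the other 4 peaks in 1 library each.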

How the results depend on the processing

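HNRNPU and HNRNPA2B1 were lower in the pull-downs under each alternative run, and below the threshold in each alternative that tested them. Without a mean trend their limma adjusted p rose to 0.00238 and 0.00243, so the size of the p-values depends on the variance model. In 5 alternatives their mean fell under the minimum, so the ratio has no test: -2.19 and -2.08 at a minimum of 10 peaks, -3.68 and -4.17 in lists of equal length, -4.12 and -3.42 in the better-scoring 50%, -1.94 and -1.92 among narrow and -2.03 and -1.79 among wide peaks. HNRNPK stayed lower, with -1.92 among narrow and -4.41 among wide peaks. HNRNPC lost its call at a minimum of 10 peaks (0.62, limma adjusted p = 0.0686), with 1 peak added (0.53, adjusted p = 0.0662), when libraries were centred on the median window (0.53, adjusted p = 0.146) and without a mean trend (0.62, adjusted p = 0.18). Leaving out 1 library gave 0.34 to 0.90, and lost the call in 3 of 4 cases. It turned to -2.38 in lists of equal length, -0.43 in the better-scoring 50% and -0.36 among wide peaks. The medians over the tested features were -1.91, -2.04 and -1.48 in the same order. Among narrow peaks the HNRNPC ratio was 2.31 (limma adjusted p = 0.0168), against a median of 1.43. The cause was not tested. Features called, 161 of 221, were 34 at a minimum of 10 peaks, 20462 with no minimum, 33 in lists of equal length, 22 in the better-scoring 50%, 91 and 1 among narrow and wide peaks and 387 with 50 kb windows. The minimum is a mean of raw peak numbers, which features high in the longer pull-down lists pass more readily: set on the share of the list, it gave 49 higher and 188 lower calls instead of 82 and 79. A minimum on the share is in turn passed more readily by features high in the shorter input lists. In lists of equal length, 0 sites in both pull-downs were free of input peaks, in the 5 genes together and in HNRNPC. When shared bases had to reach 50% of each peak there were 11, of which 7 in HNRNPC. Same-numbered libraries did not deviate together (correlation -0.014 over 221 features). With 2 libraries per group, this cannot decide whether the replicate numbers pair an input with a pull-down. With the replicate block 145 features were called, and HNRNPU, HNRNPA2B1 and HNRNPC kept their calls (HNRNPC adjusted p = 0.0139). Peak numbers of 0 to 11 per library in genes other than HNRNPC limit precision.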
